A study of Mus musculus with 12 samples.

Results

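The 35 genes described here tie the actin cytoskeleton to transcription in cultured lung epithelial cells. They are serum response factor (Srf), the actins, tropomyosins, calponins and myosins that bind or build actin filaments, LIM and focal adhesion genes, the co-activators YAP and TAZ with their factor and target genes, and regulators of the Hippo kinases. The genes were chosen by name, as transcription downstream of the small GTPase RhoA, and not from measured values. All 35 were found among the 18193 genes of the array.

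The cells were type II alveolar epithelial cells, which make lung surfactant. They were isolated from mouse lungs and cultured for 7 days with no further treatment. In 1 group the cells came from mice lacking Gna11, in the next from mice lacking Gnaq and Gna11, in the next from mice lacking Gna12, and in the last from mice lacking Gna12 and Gna13, with 3 arrays per group. Cells with all 4 genes intact were not analysed here. Every comparison is therefore between knockouts: both groups of the Gnaq/Gna11 pair lack Gna11, and both groups of the Gna12/Gna13 pair lack Gna12. The sources used here do not give the strain, age or sex of the mice, nor how and in which cells each gene was deleted. Nor do they say whether the 3 arrays of a group came from separate animals, and the spread that the p-values rest on may in part be technical. Eif2s3y, a Y-linked gene that marks male cells, read 6.91 to 7.37 on replicates 1 and 3 and 3.07 to 3.56 on replicate 2 in every group but the Gnaq/Gna11 cells, so in these 3 groups replicate 2 was not a repeat of the same RNA as the others. All 3 Gnaq/Gna11 arrays were low, at 3.33 to 3.54, and every comparison with the Gnaq/Gna11 cells therefore moves with this sex marker.

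Gnaq, Gna11, Gna12 and Gna13 encode alpha subunits of the G proteins that carry signals from cell surface receptors. G12 and G13 activate exchange factors for RhoA, while Gq and G11 act through phospholipase C and calcium and can also reach RhoA. RhoA drives the assembly of actin filaments, which frees the co-activators MRTF-A and MRTF-B from monomeric actin, and these then bind SRF on actin and adhesion genes. The same actin tension keeps YAP and TAZ active, which bind TEAD factors on genes such as Ccn1, Ccn2 and Ankrd1, while the Hippo kinases LATS1 and LATS2 hold YAP and TAZ in the cytoplasm. In the lung epithelium YAP and TAZ are known for their part in the passage of type II cells to type I cells and in repair.

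SRF binds a DNA element called the CArG box, and TEAD factors bind the letters CATTCC. Both were searched on both strands in the 250 bases before the RefSeq start of transcription (GRCm38.p6), and 29 of the 35 genes have such a stretch in the sequence table used. A CArG box lay in 7 of the 29 (24.1%, against 1.62% of all genes of the table), namely Actg1, Cnn2, Fhl1, Fhl2, Myl9, Srf and Vcl. CATTCC lay in 13 of the 29 (44.8%, against 14.4% of all genes). These genes were chosen as known genes of the pathway, so the shares are a description and not independent evidence. With 1 mismatch allowed in the central bases, the CArG box was found in 9 members (31.0%, against 9.78% of all genes). The sequences shown next are those of the members with a match on which the results below turn. They run 5′ to 3′ toward the start of transcription, and capitals mark the matched letters. Srf (chr17:46556163-46556412, minus strand) carries 2 CArG boxes beginning 82 and 62 bases before its start. Myl9 (chr2:156775214-156775463, plus strand) and Fhl1 (chrX:56779433-56779682, plus strand) carry 1 CArG box each. The stretch before the other RefSeq start of Fhl1 (chrX:56786277-56786526, plus strand) carries neither motif. Vcl (chr14:20929148-20929397, plus strand) is the only member with both motifs, the TEAD letters lying on the opposite strand. Ccn1 (chr3:145649986-145650235, minus strand), Flna (chrX:74246535-74246784, minus strand) and Ptpn14 (chr1:189728018-189728267, plus strand) carry CATTCC alone.
Srf: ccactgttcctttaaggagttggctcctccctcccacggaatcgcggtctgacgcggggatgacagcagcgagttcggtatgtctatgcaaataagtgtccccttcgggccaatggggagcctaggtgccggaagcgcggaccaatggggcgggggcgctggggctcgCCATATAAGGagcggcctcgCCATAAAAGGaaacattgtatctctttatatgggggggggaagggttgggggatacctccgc
Myl9: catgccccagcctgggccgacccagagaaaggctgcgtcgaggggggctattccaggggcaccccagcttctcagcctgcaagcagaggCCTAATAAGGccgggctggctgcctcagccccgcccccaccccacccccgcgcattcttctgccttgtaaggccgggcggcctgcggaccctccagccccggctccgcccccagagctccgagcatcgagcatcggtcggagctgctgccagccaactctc
Fhl1: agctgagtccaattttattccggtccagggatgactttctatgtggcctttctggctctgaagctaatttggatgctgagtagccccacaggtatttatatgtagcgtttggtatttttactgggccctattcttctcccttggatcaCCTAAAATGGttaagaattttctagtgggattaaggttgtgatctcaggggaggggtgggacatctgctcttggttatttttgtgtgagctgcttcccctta
Vcl: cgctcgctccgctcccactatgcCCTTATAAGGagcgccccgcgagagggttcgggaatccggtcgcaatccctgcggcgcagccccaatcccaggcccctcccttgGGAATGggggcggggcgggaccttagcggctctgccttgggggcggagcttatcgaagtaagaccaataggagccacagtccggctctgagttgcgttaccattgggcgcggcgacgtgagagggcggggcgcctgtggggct
Ccn1: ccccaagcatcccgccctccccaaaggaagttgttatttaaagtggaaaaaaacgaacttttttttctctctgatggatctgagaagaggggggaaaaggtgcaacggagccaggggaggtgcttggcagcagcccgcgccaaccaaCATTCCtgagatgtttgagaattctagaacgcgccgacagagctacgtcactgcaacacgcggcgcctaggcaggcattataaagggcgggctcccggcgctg
Flna: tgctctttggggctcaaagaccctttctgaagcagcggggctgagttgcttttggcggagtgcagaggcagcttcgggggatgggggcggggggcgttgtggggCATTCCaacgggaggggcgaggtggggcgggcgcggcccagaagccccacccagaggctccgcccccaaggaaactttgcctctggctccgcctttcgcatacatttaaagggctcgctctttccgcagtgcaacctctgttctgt
Ptpn14: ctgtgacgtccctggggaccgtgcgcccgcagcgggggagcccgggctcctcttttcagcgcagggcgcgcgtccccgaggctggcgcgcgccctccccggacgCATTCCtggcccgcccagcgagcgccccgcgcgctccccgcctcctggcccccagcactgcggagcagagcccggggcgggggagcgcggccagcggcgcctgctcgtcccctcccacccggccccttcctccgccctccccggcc

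Values below are expression values on the log2 scale, for 1 probe set per gene, and every array is given in the order of its replicate number. The probe sets of 32 members had a mean over the 12 arrays above 5.08, the median of all probe sets. Those of Actg2 (4.21), Ccn2 (4.36) and Ankrd1 (4.68) lay below it and are weak signals. Over the 12 arrays the range of a member ran from 0.14 (Actg1) to 2.76 (Acta2), with a median of 1.19. The median standard deviation within groups was 0.30 for the members and 0.23 for all genes. The mean over the 35 members was 8.75 ± 0.20 in the Gna11 cells (SD, n = 3 arrays), 8.67 ± 0.03 in the Gnaq/Gna11 cells, 8.90 ± 0.07 in the Gna12 cells and 8.86 ± 0.09 in the Gna12/Gna13 cells. The lowest of the 4 group means was in the Gna11 cells for 8 members, the Gnaq/Gna11 cells for 17, the Gna12 cells for 4 and the Gna12/Gna13 cells for 6. The highest was there for 9, 5, 11 and 10 members, in the same order. The shares over all genes were not worked out, so these counts are a description alone.

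**Figure D1:**
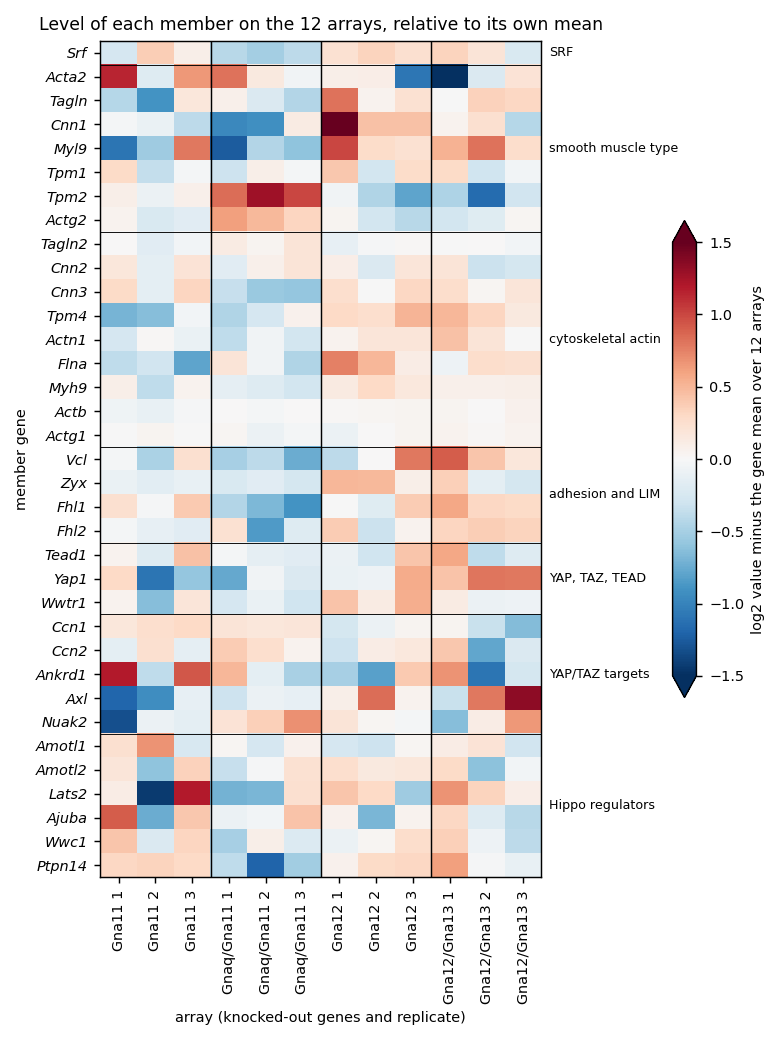
Each row is 1 of the 35 genes, grouped by role, and each column is 1 of the 12 arrays, grouped by genotype. Colour gives the log2 value minus the mean of that gene over the 12 arrays; the rows of Acta2 (range 2.76) and Lats2 vary within groups, while those of Actg1 (range 0.14) and Actb are nearly flat.

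Markers of the labelled cell type were present. The 10 measured of the type II markers had a mean level of 11.12 in the Gna11 cells, 11.26 in the Gnaq/Gna11 cells, 10.66 in the Gna12 cells and 10.60 in the Gna12/Gna13 cells. Type I markers were present too, Ager with a mean of 13.41 over the 12 arrays. The mean of 9 such markers was 8.68 to 10.41, with 8.68, 8.78 and 8.91 on replicate 2 of the Gna11, Gna12 and Gna12/Gna13 cells. The mean of 5 mesothelial markers was 5.04 to 5.12 in the Gnaq/Gna11 cells and 5.28 to 5.83 over the other groups. That of 8 endothelial markers was 6.21 to 7.93 over all arrays. For each deleted gene 1 probe set (of 2 for Gna11, 5 for Gna12, 7 for Gna13 and 7 for Gnaq) lay lower on every array labelled as lacking the gene than on all others, by mean differences of -1.11, -0.31, -1.04 and -1.23. The other probe sets overlapped, and among those with a higher mean in the cells lacking the gene were 1 of Gna11 (0.13) and 1 of Gna12 (0.28). The mean of 14 leukocyte markers was 9.10 to 9.64 in the Gna11 cells and 9.72 to 10.53 over the other groups. The mean of 12 fibroblast markers was 6.81 to 7.03 in the Gnaq/Gna11 cells and 5.55 to 6.46 over the other groups, and that of 10 smooth muscle and pericyte markers was 5.33 to 6.03 over all arrays. Among the latter, Myh11 (4.72), Synpo2 (4.65), Rgs5 (4.46) and Myocd (3.86) had means over the 12 arrays below the median of all probe sets, and the other 6 had means from 5.57 (Kcnmb1) to 7.06 (Notch3). The Gapdh signal difference between its 3′ and 5′ control probe sets, a measure of RNA quality, was 3.70 ± 0.29 in the Gna11 cells, 3.14 ± 0.12 in the Gnaq/Gna11 cells, 3.00 ± 0.30 in the Gna12 cells and 3.15 ± 0.17 in the Gna12/Gna13 cells (SD, n = 3). For Actb the like difference was 3.23 ± 0.18, 3.10 ± 0.32, 3.00 ± 0.14 and 3.17 ± 0.17, in the same order. The Actb ranges of all groups overlapped, and only the Gapdh measure was used as a covariate. In such bulk RNA, fewer cells of a type and less RNA per cell cannot be told apart.

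On the probe set used, Srf, the transcription factor at the centre of the actin genes, was lowest in the Gnaq/Gna11 cells. Its other probe set is given below. It read 10.40, 11.03 and 10.74 in the Gna11 cells, 10.24, 10.14 and 10.26 in the Gnaq/Gna11 cells, 10.89, 10.98 and 10.90 in the Gna12 cells, and 10.99, 10.85 and 10.43 in the Gna12/Gna13 cells. The 3 Gnaq/Gna11 arrays lay below the other 9, and the other groups overlapped.

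Among the contractile genes, which are abundant in smooth muscle and myofibroblasts, the members did not share a pattern. Acta2, smooth muscle alpha actin, read 9.11, 7.78 and 8.62 in the Gna11 cells, 8.78, 8.11 and 7.92 in the Gnaq/Gna11 cells, 8.06, 8.07 and 6.89 in the Gna12 cells, and 6.35, 7.75 and 8.17 in the Gna12/Gna13 cells. It varied as much within a group as between groups, and all pairs of groups overlapped. Tagln, which encodes the actin binding protein transgelin, read 5.83, 5.36 and 6.43 in the Gna11 cells, 6.33, 6.04 and 5.81 in the Gnaq/Gna11 cells, 7.07, 6.30 and 6.49 in the Gna12 cells, and 6.25, 6.61 and 6.56 in the Gna12/Gna13 cells. Its 4 lowest values were all in cells lacking Gna11. Cnn1, calponin 1, read 6.80, 6.73 and 6.43 in the Gna11 cells, 5.86, 5.91 and 6.95 in the Gnaq/Gna11 cells, 8.38, 7.27 and 7.26 in the Gna12 cells, and 6.88, 7.06 and 6.41 in the Gna12/Gna13 cells. The 3 Gna12 arrays lay above all others. Myl9, a regulatory light chain of myosin II that is phosphorylated downstream of RhoA, read 7.17, 7.73 and 9.05 in the Gna11 cells, 7.01, 7.82 and 7.66 in the Gnaq/Gna11 cells, 9.27, 8.54 and 8.49 in the Gna12 cells, and 8.78, 9.08 and 8.53 in the Gna12/Gna13 cells. All but 1 of the arrays lacking Gna11 lay below those lacking Gna12, the exception being Gna11 replicate 3. Tpm2, beta tropomyosin, had the opposite order and read 11.11, 10.94 and 11.10 in the Gna11 cells, 11.87, 12.30 and 12.02 in the Gnaq/Gna11 cells, 10.97, 10.57 and 10.23 in the Gna12 cells, and 10.56, 9.87 and 10.73 in the Gna12/Gna13 cells. The Gnaq/Gna11 cells lay above all other arrays. The weak signal of Actg2, the enteric smooth muscle actin, read 4.25, 3.98 and 4.04 in the Gna11 cells, 4.82, 4.69 and 4.53 in the Gnaq/Gna11 cells, 4.25, 3.93 and 3.79 in the Gna12 cells, and 3.93, 4.03 and 4.24 in the Gna12/Gna13 cells. Here too the Gnaq/Gna11 arrays were the highest, while the other groups overlapped.

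On the probe sets used, the cytoskeletal actins were nearly level. Another probe set of Actb, given below, separated the arrays lacking Gna12 from those lacking Gna11. Actb read 13.12, 13.07 and 13.16 in the Gna11 cells, 13.19, 13.15 and 13.19 in the Gnaq/Gna11 cells, 13.21, 13.22 and 13.23 in the Gna12 cells, and 13.22, 13.19 and 13.25 in the Gna12/Gna13 cells. Actg1 read 12.20, 12.24 and 12.21 in the Gna11 cells, 12.23, 12.11 and 12.18 in the Gnaq/Gna11 cells, 12.11, 12.21 and 12.25 in the Gna12 cells, and 12.26, 12.22 and 12.26 in the Gna12/Gna13 cells. All 12 arrays lay within 0.18 for Actb and 0.14 for Actg1. Tpm4, a tropomyosin of non-muscle cells, read 8.39, 8.45 and 9.05 in the Gna11 cells, 8.64, 8.83 and 9.16 in the Gnaq/Gna11 cells, 9.39, 9.34 and 9.60 in the Gna12 cells, and 9.59, 9.42 and 9.23 in the Gna12/Gna13 cells. Every array lacking Gna12 lay above every array lacking Gna11. Flna, which cross-links actin filaments, read 8.28, 8.37 and 7.87 in the Gna11 cells, 8.85, 8.60 and 8.20 in the Gnaq/Gna11 cells, 9.41, 9.16 and 8.77 in the Gna12 cells, and 8.58, 8.92 and 8.90 in the Gna12/Gna13 cells. The Gna12 and Gna11 groups did not overlap, but the Gna12/Gna13 and Gnaq/Gna11 groups did. Myh9, the heavy chain of non-muscle myosin IIA, read 11.18, 10.71 and 11.14 in the Gna11 cells, 10.95, 10.90 and 10.82 in the Gnaq/Gna11 cells, 11.22, 11.39 and 11.24 in the Gna12 cells, and 11.16, 11.17 and 11.18 in the Gna12/Gna13 cells. Its highest values were those of the Gna12 cells and its lowest value was in Gna11 replicate 2. Cnn3, the calponin of non-muscle cells, read 12.03, 11.59 and 12.07 in the Gna11 cells, 11.40, 11.18 and 11.16 in the Gnaq/Gna11 cells, 12.002, 11.74 and 12.06 in the Gna12 cells, and 12.01, 11.78 and 11.93 in the Gna12/Gna13 cells. Its Gnaq/Gna11 arrays lay below the other 9. The other members of this role, Tagln2, Cnn2 and Actn1, had ranges of 0.36, 0.53 and 0.81 over the 12 arrays.

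Of the adhesion and LIM genes, Zyx, which encodes zyxin of focal adhesions, read 9.18, 9.11 and 9.16 in the Gna11 cells, 9.05, 9.11 and 9.01 in the Gnaq/Gna11 cells, 9.78, 9.76 and 9.37 in the Gna12 cells, and 9.64, 9.13 and 9.01 in the Gna12/Gna13 cells. The Gna12 cells lay above both groups lacking Gna11, and Gna12/Gna13 replicate 1 lay among them. Fhl1, a LIM domain gene, read 10.03, 9.78 and 10.18 in the Gna11 cells, 9.36, 9.12 and 8.90 in the Gnaq/Gna11 cells, 9.79, 9.61 and 10.17 in the Gna12 cells, and 10.37, 10.11 and 10.07 in the Gna12/Gna13 cells. All 3 Gnaq/Gna11 arrays lay below every other array. Vcl, encoding vinculin, and Fhl2 had ranges of 1.65 and 1.24.

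Yap1 and Wwtr1 encode YAP and TAZ. Yap1 read 7.68, 6.28 and 6.80 in the Gna11 cells, 6.61, 7.33 and 7.16 in the Gnaq/Gna11 cells, 7.28, 7.30 and 7.94 in the Gna12 cells, and 7.80, 8.18 and 8.17 in the Gna12/Gna13 cells. The Gna12/Gna13 cells lay above the Gnaq/Gna11 cells, and the single knockouts overlapped. Wwtr1 read 8.50, 7.81 and 8.63 in the Gna11 cells, 8.20, 8.35 and 8.16 in the Gnaq/Gna11 cells, 8.88, 8.58 and 9.00 in the Gna12 cells, and 8.58, 8.37 and 8.37 in the Gna12/Gna13 cells. Its single knockouts overlapped as well. The secreted matrix protein gene Ccn1, a target of both SRF and YAP/TAZ, read 13.07, 13.14 and 13.19 in the Gna11 cells, 13.09, 13.06 and 13.07 in the Gnaq/Gna11 cells, 12.63, 12.81 and 12.93 in the Gna12 cells, and 12.93, 12.56 and 12.24 in the Gna12/Gna13 cells. Every array lacking Gna12 lay below every array lacking Gna11. The weak signal of Ccn2, its relative, read 4.21, 4.60 and 4.22 in the Gna11 cells, 4.74, 4.61 and 4.41 in the Gnaq/Gna11 cells, 4.04, 4.47 and 4.52 in the Gna12 cells, and 4.76, 3.58 and 4.14 in the Gna12/Gna13 cells. All pairs of groups overlapped. Ankrd1, another widely used YAP/TAZ target, read 5.87, 4.30 and 5.62 in the Gna11 cells, 5.18, 4.53 and 4.20 in the Gnaq/Gna11 cells, 4.19, 3.87 and 5.08 in the Gna12 cells, and 5.35, 3.59 and 4.42 in the Gna12/Gna13 cells. It too overlapped between all groups. Axl, a receptor tyrosine kinase, and the kinase gene Nuak2 had ranges of 2.53 and 2.01, and the 6 Hippo regulators (Amotl1, Amotl2, Lats2, Ajuba, Wwc1 and Ptpn14) had ranges of 0.91 (Wwc1) to 2.62 (Lats2).

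**Figure D2:**
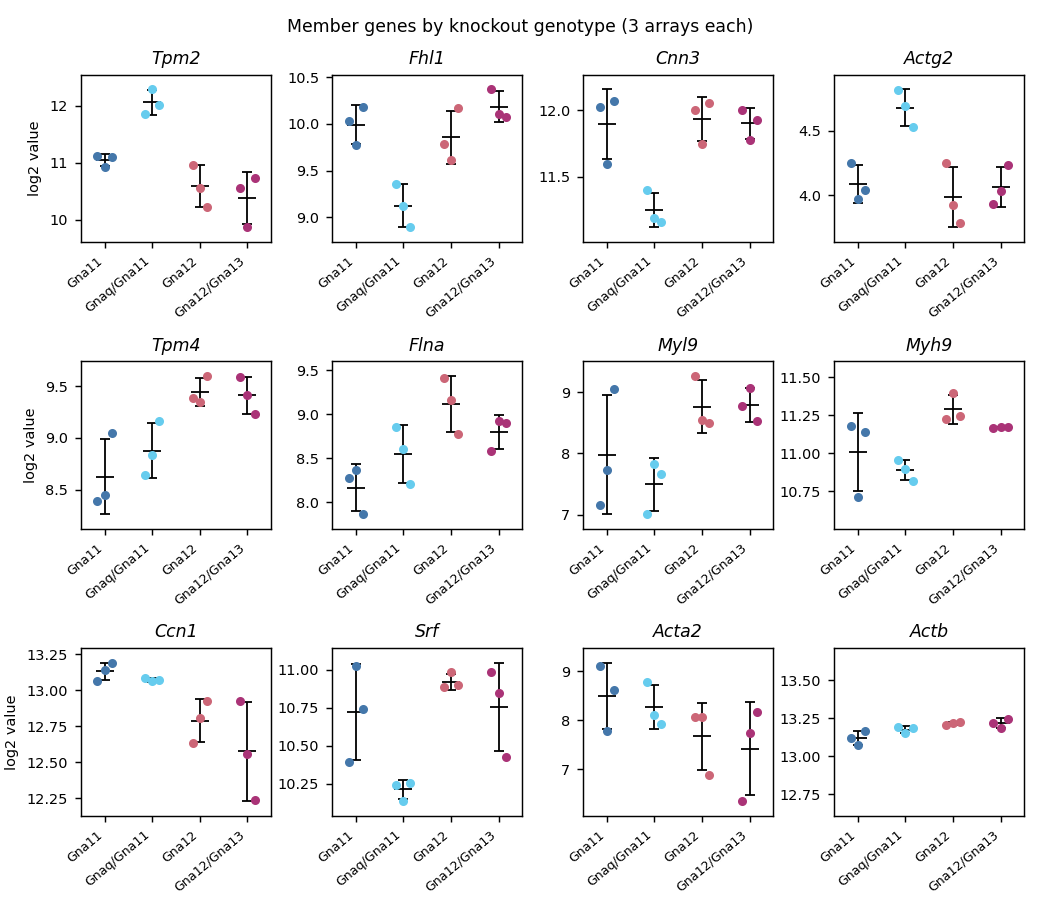
Log2 values of selected members on each of the 12 arrays (points), with the mean of each group of 3 and its SD (horizontal and vertical lines), 1 panel per gene. Tpm2 is highest in the Gnaq/Gna11 cells (11.87 to 12.30), Cnn3 and Fhl1 are lowest there, and Ccn1 is lower in every array lacking Gna12 (12.24 to 12.93) than in every array lacking Gna11 (13.06 to 13.19).

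The first comparison asks what the loss of Gnaq adds to the loss of Gna11. A position letter in the labels goes with it, B, C or D for the single and E, F or G for the double knockouts. The same holds for the Gna12/Gna13 pair. In both pairs the position and the genotype cannot be told apart. Cnn3 and Fhl1 were lower in the Gnaq/Gna11 cells and no member was called higher. Here and below, called means that limma gave an adjusted p under 0.05, with Benjamini-Hochberg adjustment over the 18193 genes. In this comparison 2 of 35 members were called, where 1.84% of all genes were (1.17% higher and 0.676% lower). Cnn3 was 11.25 ± 0.13 against 11.90 ± 0.26 (SD, n = 3), a log2 difference of -0.65 ± 0.13 (SE, adjusted p = 0.0367) or 1.57-fold. Fhl1 was 9.12 ± 0.23 against 9.99 ± 0.20, a difference of -0.87 ± 0.18 (adjusted p = 0.0410) or 1.83-fold. The widest differences missed the threshold: Tpm2 differed by 1.01 ± 0.23 (adjusted p = 0.0517) and Ptpn14, a phosphatase that binds YAP, by -1.01 ± 0.24 (adjusted p = 0.0637). Actg2 differed by 0.59 ± 0.14 (adjusted p = 0.0604) and Srf by -0.51 ± 0.17 (adjusted p = 0.167), which for Srf is 10.21 ± 0.07 against 10.72 ± 0.32. At an unadjusted p under 0.05 there were 4 members with a positive and 4 with a negative difference, 8 of 35, where 16.2% of all genes passed.

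By role, the differences of the 4 adhesion and LIM genes and of the 6 Hippo regulators were all negative, with medians of -0.31 in both, while the median of all genes was -0.03. With each array centred on its median, 1 of the 6 Hippo regulators had a positive difference, and with the mean of a gene's probe sets the medians were -0.18 and -0.13. The 5 YAP/TAZ target genes had 3 positive and 2 negative differences, from -0.63 (Ankrd1) to 0.94 (Nuak2). Among the 7 contractile genes 3 were positive and 4 negative. The 7 members with a CArG box all had negative differences, with a median of -0.46, and the 13 with CATTCC had 4 positive and 9 negative ones with a median of -0.06. Over the 35 members 11 differences were positive and 24 negative, with a median of -0.09, and 45.4% of all genes had a positive difference. That median turned positive with a covariate for Eif2s3y (0.08), for the Gapdh measure (0.02) or for the leukocyte markers (0.007). The 2 groups did not overlap for 4 members in the higher and 5 in the lower direction, where 19.7% of all genes did not overlap in either direction.

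Other cell types moved with this comparison. Of the 12 fibroblast markers 2 were called higher in the Gnaq/Gna11 cells, Col3a1 by 2.10 and Col1a1 by 1.57, and 2 of the 14 leukocyte markers were called higher, while 1 of the 10 smooth muscle and pericyte markers, Notch3, was called lower by a difference of -1.46. The lists were mixed. The fibroblast markers Pdgfra (4.56 against 4.92), Thy1 (9.39 against 9.61), Lum and Fbln1 had lower means in the Gnaq/Gna11 cells, and the others higher ones. The smooth muscle and pericyte markers Cspg4 (7.64 against 6.71) and Kcnmb1 (5.66 against 4.85) had higher means, and that list averaged 5.78 against 5.77. The part of these cell types in the result was not tested. Cnn3 was called in 12 of 24 alternative analyses (adjusted p from 0.0137 to 0.559) and Fhl1 in 8 (0.0264 to 0.727). No member was called without Gna11 replicate 1, Gna11 replicate 3, Gnaq/Gna11 replicate 2, Gnaq/Gna11 replicate 3, Gna12 replicate 1 or Gna12/Gna13 replicate 3, each left out alone, and 1, Cnn3, was called without Gna11 replicate 2. Of all genes, 0.561% (without Gnaq/Gna11 replicate 2) to 2.06% (without Gna11 replicate 3) were called in these fits. With Eif2s3y as a covariate Cnn3 stayed called (-0.46, adjusted p = 0.0486), Tpm2 was called higher (1.21, adjusted p = 0.0450) and Fhl1 was not called (-0.70, adjusted p = 0.0975). Gna11 replicate 2, the 1 Gna11 array low in Eif2s3y, read 11.59 in Cnn3, 9.78 in Fhl1 and 10.94 in Tpm2. The Gnaq/Gna11 arrays read 11.16 to 11.40, 8.90 to 9.36 and 11.87 to 12.30, in the same order. These values rest on 1 Gna11 array, and the part of the sex marker in the result was not tested. With each array centred on its median the calls were 1 higher (Tpm2) and 2 lower, and after quantile normalization 1 higher (Actg2) and 2 lower. Of all genes, 1.8% were called in either setting.

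Loss of Gna13 on top of Gna12, the pair nearest to RhoA, gave no call among the members. By limma 0 of 35 members and 0% of all 18193 genes were called, and 1 of 35 members passed an unadjusted p under 0.05, where 4.51% of all genes did. That member was Cnn1, 6.78 ± 0.34 against 7.64 ± 0.64 (SD, n = 3), with a difference of -0.85 ± 0.36 (adjusted p = 1.00). The next were Zyx with -0.37 ± 0.18 and Fhl1 with 0.33 ± 0.18, both with the same adjusted p. Srf differed by -0.17 (95% interval -0.54 to 0.20), Acta2 by -0.25 (-1.37 to 0.88) and Ccn1 by -0.21 (-0.51 to 0.08). Yap1 differed by 0.54 (-0.21 to 1.30). The intervals of 28 members lay within a 2-fold change in either direction, and those of the other 7 reached it, so a change of that size is not excluded for these 7. No member had a difference of 2-fold. Of the 35 differences 15 were positive and 20 negative, with a median of -0.03, and 49.9% of all genes had a positive one.

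The direct test of whether the second deletion acts otherwise in the 2 pairs, the difference between the differences, called 0 of 35 members by limma, where 0.0715% of all genes were called. At an unadjusted p under 0.05 there were 5 members, where 10.8% of all genes passed: Fhl1 (1.20 ± 0.26, adjusted p = 0.110), Tpm2 (-1.21 ± 0.32, adjusted p = 0.183), Cnn3 (0.62 ± 0.19, adjusted p = 0.231), Ptpn14 (0.95 ± 0.34, adjusted p = 0.322) and Actg2 (-0.51 ± 0.20, adjusted p = 0.356). Cnn3 and Fhl1, called in the Gnaq/Gna11 pair and not in the Gna12/Gna13 pair, are therefore not shown to differ between the pairs.

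**Figure D3:**
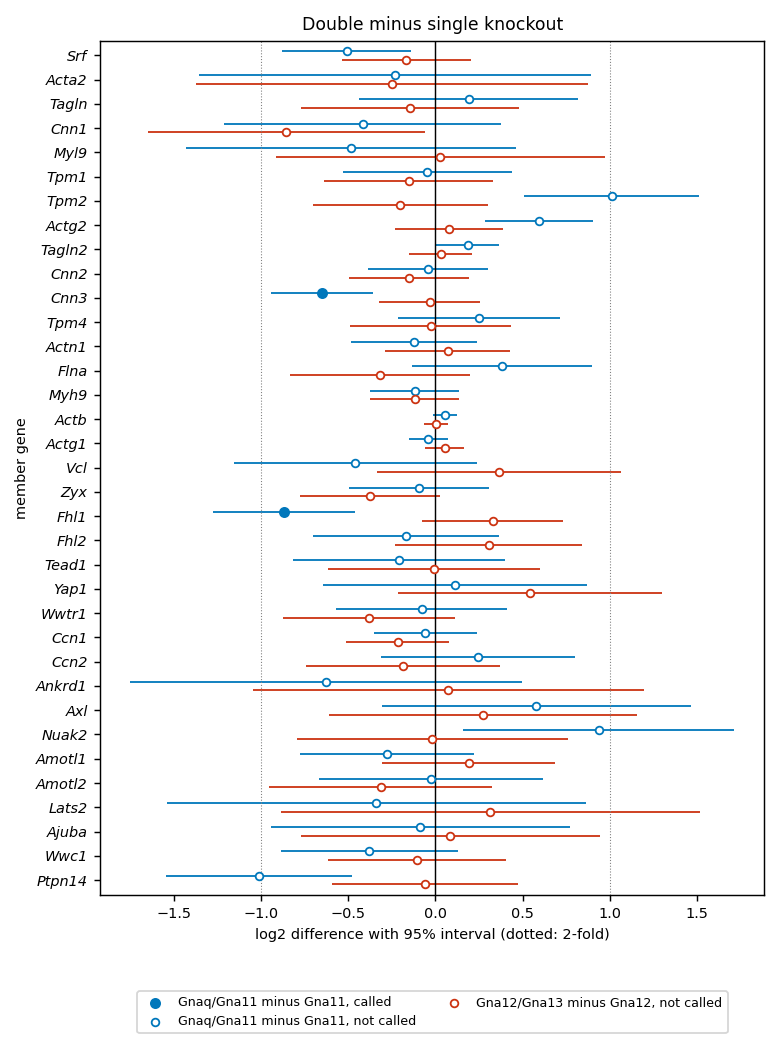
Log2 difference with 95% interval between double and single knockout for each of the 35 members, for the Gnaq/Gna11 pair and the Gna12/Gna13 pair, with filled points for called genes. Only Cnn3 (-0.65) and Fhl1 (-0.87) in the Gnaq/Gna11 pair are filled; all Gna12/Gna13 points lie within the dotted lines of a 2-fold change.

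Setting the cells that lack Gna12 against those that lack Gna11 gave more calls among the members than any other comparison, in both directions. The mean of the 6 arrays lacking Gna12 was above that of the 6 lacking Gna11 in Tpm4, Cnn3, Flna, Fhl1, Myl9 and Myh9. It was below in Tpm2, Ccn1 and Actg2. These 9 of 35 members were called where 12.3% of all genes were called (6.48% higher and 5.86% lower). For Fhl1, Cnn3 and Actg2 the single knockouts, Gna12 minus Gna11, differed by only -0.14, 0.04 and -0.10. The double knockouts, Gna12/Gna13 minus Gnaq/Gna11, differed by 1.06, 0.66 and -0.62. The calls of Fhl1, Cnn3 and Actg2 thus rest mainly on the Gnaq/Gna11 arrays. Most members are bright. When the brighter genes alone were tested, those no lower than the median gene, 22.8% of them and 11 of 30 members were called. In the labels a position number goes with this contrast (2 in all groups lacking Gna11, 4 in all lacking Gna12), and the position and the genotype cannot be told apart.

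Among the contractile genes Myl9 was higher and Tpm2 and Actg2 were lower in the cells lacking Gna12. Tpm2 ran from 9.87 to 10.97 in these cells and from 10.94 to 12.30 in those lacking Gna11, a difference of -1.07 ± 0.16 (SE, adjusted p = 0.00308) or 2.10-fold. Myl9 was 8.78 ± 0.33 against 7.74 ± 0.72 (SD, n = 6), a difference of 1.04 ± 0.30 (adjusted p = 0.0466) or 2.06-fold. Actg2 differed by -0.36 ± 0.10 (adjusted p = 0.0384). Acta2 had a difference of -0.84 ± 0.36 (adjusted p = 0.145), Cnn1 of 0.76 ± 0.26 (adjusted p = 0.0739) and Tagln of 0.58 ± 0.20 (adjusted p = 0.0808).

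Of the 9 cytoskeletal genes 4 were called, all higher. Tpm4 was 9.43 ± 0.14 in the cells lacking Gna12 and 8.75 ± 0.31 in those lacking Gna11 (SD, n = 6), a difference of 0.67 ± 0.15 (adjusted p = 0.0175) or 1.60-fold. Flna differed by 0.60 ± 0.17 (adjusted p = 0.0396), Cnn3 by 0.35 ± 0.09 (adjusted p = 0.0350) and Myh9 by 0.28 ± 0.08 (adjusted p = 0.0477). Actb differed by 0.07 ± 0.02 (adjusted p = 0.0631), which is 1.05-fold, and Actg1 by 0.02 (95% interval -0.06 to 0.10).

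Fhl1 was the called gene among the 4 adhesion and LIM genes, with a difference of 0.46 ± 0.13 (adjusted p = 0.0421), and all 4 differences were positive with a median of 0.42. Srf had a difference of 0.37 ± 0.12 (adjusted p = 0.0644). The co-activator genes had positive differences too, Yap1 of 0.80 ± 0.24 (adjusted p = 0.0540) and Wwtr1 of 0.36 ± 0.16 (adjusted p = 0.155). The target Ccn1 was lower, at 12.68 ± 0.27 against 13.10 ± 0.05 (SD, n = 6), a difference of -0.42 ± 0.09 (adjusted p = 0.0187) or 1.34-fold. The other YAP/TAZ targets split: Axl differed by 0.92 ± 0.28 (adjusted p = 0.0566) and Nuak2 also positively, while Ankrd1 differed by -0.53 ± 0.36 and Ccn2 by -0.21 ± 0.18. None of the 6 Hippo regulators was called, and 4 of their differences were positive and 2 negative (3 and 3 with the mean of a gene's probe sets or after quantile normalization).

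**Figure D4:**
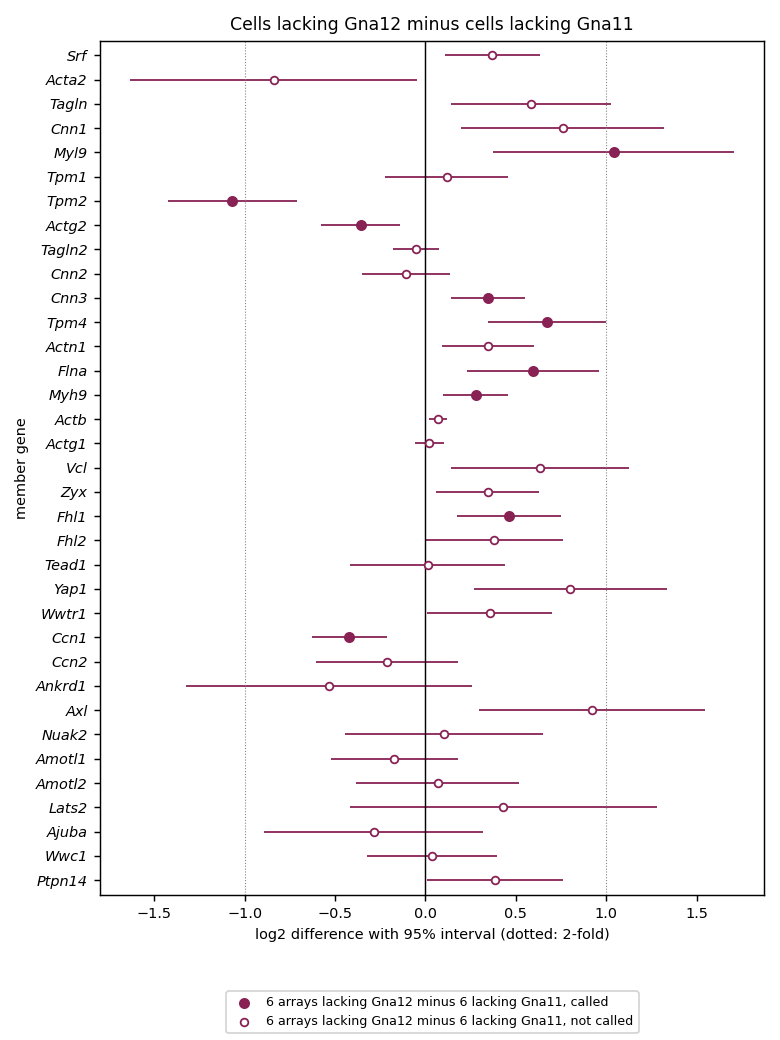
Log2 difference with 95% interval between the 6 arrays lacking Gna12 and the 6 lacking Gna11, for each of the 35 members, with filled points for the 9 called genes. The called points run from Tpm2 (-1.07) to Myl9 (1.04), with 6 on the positive and 3 on the negative side.

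Over the 35 members 25 differences were positive and 10 negative, with a median of 0.28. With the mean of a gene's probe sets 22 were positive and 13 negative, with a median of 0.12, and with the mesenchymal covariate (the mean of the fibroblast and smooth muscle markers) the median was 0.14. The median of all genes was -0.05, and 41.3% of them had a positive difference. At an unadjusted p under 0.05 there were 18 members with positive and 4 with negative differences, where 30.3% of all genes passed. Tpm4, higher, and Ccn1, lower, were the only members whose 6 arrays did not overlap the other 6, and 5.74% of all genes did not overlap. Of the 8 called members with a promoter stretch, Fhl1 and Myl9 carry a CArG box, Ccn1 and Flna carry CATTCC, and Cnn3, Myh9, Tpm2 and Tpm4 carry neither. Of the 7 members with a CArG box, 6 had a positive difference (median 0.38). The 13 with CATTCC had 8 positive and 5 negative differences, with a median of 0.12.

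The contrast held other differences between the cells. In the cells lacking Gna12, 5 of the 14 leukocyte markers were called higher and none lower, 6 of the 10 type II markers were called lower, and 4 of the 12 fibroblast markers were called lower. The part of these and of the Gapdh difference given above in the result was not tested. Tpm2, Tpm4 and Ccn1 were called with each of the 12 arrays left out in turn. With the mean of a gene's probe sets, however, Ccn1, Cnn3, Fhl1 and Myh9 were not called, where 11.8% of all genes were. The count of called members went from 9 to 3 without Gna12/Gna13 replicate 2 or Gnaq/Gna11 replicate 2, to 4 without Gna12 replicate 1 or 3, and to 5 without Gna12 replicate 2, Gna12/Gna13 replicate 1 or 3, or Gnaq/Gna11 replicate 3. The share of all genes called fell too, from 12.3% with all arrays. It ran from 6.12% (without Gna12/Gna13 replicate 2) to 10.3% (without Gna12/Gna13 replicate 1) over these fits. With Eif2s3y as a covariate 4 members were called higher and 4 lower: Myl9, Myh9 and Fhl1 were no longer called, and Srf, higher, and Ankrd1, lower, were. With each array centred on its median 8 members were higher and 2 lower, and after quantile normalization 2 were higher (Cnn3 and Tpm4) and 2 lower (Tpm2 and Ccn1).

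The contrast can be read separately in the single and in the double knockouts, which share no arrays. Between the single knockouts, Gna12 minus Gna11, limma called 0 of 35 members, where 2.82% of all genes were called, and 10 passed an unadjusted p under 0.05 (9 positive, 1 negative), where 20.9% of all genes did. Flna differed by 0.95 ± 0.23 (adjusted p = 0.0549), Tpm4 by 0.81 ± 0.21 (adjusted p = 0.0628) and Actb by 0.10 ± 0.03 (adjusted p = 0.115). Without Gna11 replicate 3, 1 member, Tpm4, was called, where 4.05% of all genes were. The mean of the leukocyte markers was 9.38 in the Gna11 and 10.36 in the Gna12 cells, with 6 of 14 called higher in the latter, and the Gapdh measure differed between them as given above. Their part in these values was not tested.

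Between the double knockouts, Gna12/Gna13 minus Gnaq/Gna11, 4 of 35 members were called, where 6.1% of all genes were (3.39% higher and 2.7% lower). Fhl1 (1.06 ± 0.18, adjusted p = 0.00859) and Cnn3 (0.66 ± 0.13, adjusted p = 0.0163) were higher in the Gna12/Gna13 cells. Tpm2 (-1.67 ± 0.23, adjusted p = 0.00301, 3.19-fold) and Actg2 (-0.62 ± 0.14, adjusted p = 0.0280) were lower. Ccn1 differed by -0.50 ± 0.13 (adjusted p = 0.0526), Vcl by 1.04 ± 0.32 (adjusted p = 0.0812), Myl9 by 1.30 ± 0.43 (adjusted p = 0.104) and Yap1 by 1.02 ± 0.34 (adjusted p = 0.111). The groups did not overlap for 16 members, 12 higher and 4 lower, where 28.4% of all genes did not overlap. Of the 12 fibroblast markers 4 were called lower in the Gna12/Gna13 cells, Col1a1 by a difference of -2.25 among them, and 5 of 10 type II markers were called lower, while no leukocyte marker was called. Their part in the result was not tested. With Eif2s3y as a covariate the same 4 members and Srf, higher, were called. Without Gnaq/Gna11 replicate 2, 2 members were called, Tpm2 and Fhl1, where 2.86% of all genes were. With the mean of the fibroblast and smooth muscle markers as a covariate, 0 members and 0.418% of all genes were called. The adjusted p of Tpm2 by limma ran from 0.00166 to 0.138 over its 24 alternatives.

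The 35 members had the same sign in both contrasts in 25 cases (71.4%), and all genes did in 66.6%. Tpm4, Myh9 and Ccn1 had the same sign and an unadjusted p under 0.05 in both, 8.57% of the members against 6.38% of all genes.

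For 22 of the 35 genes the array holds more than 1 probe set, 82 in all, and these did not always give like differences. The 3 bright probe sets of Tpm2 agreed, with differences in the Gnaq/Gna11 pair of 1.01, 1.00 and 1.09, each without overlap of the groups, and the dim one gave 0.45 with overlap. Those of Cnn3 gave -0.65, -0.75 and -0.77 there, and the brighter pair of Ptpn14 -1.01 and -0.87. For Ccn1 the bright pair gave -0.42 and -0.43 in the contrast of cells lacking Gna12 with those lacking Gna11, both without overlap. The dim pair of Ccn1 (means of 4.47 and 3.77) gave -0.30 and 0.00 in that contrast, but -0.85 and -0.71 in the Gnaq/Gna11 pair, where the bright pair gave -0.06 and -0.08.

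The probe sets of Tpm1, alpha tropomyosin, gave unlike values. The one used differed by 0.12 between the cells lacking Gna12 and those lacking Gna11. The next brightest, with a mean of 9.24, differed by 0.89 without overlap of the 6 arrays with the other 6, and by -0.70 in the Gnaq/Gna11 pair, also without overlap. A dimmer one differed by 0.96 with overlap. Tropomyosin genes make many isoforms from alternative exons, and which isoform each probe set reads was not analysed here. Actb gave 0.07 with the probe set used and -0.31 with the other, whose arrays lacking Gna12 all lay below those lacking Gna11, so its direction rests on the probe set. Yap1 gave 0.54 in the Gna12/Gna13 pair with the probe set used and -0.31, without overlap, with a dimmer one of mean 5.29, so its direction there also rests on the probe set. For Srf the dimmer probe set, of mean 5.24, gave -0.08 in the Gnaq/Gna11 pair, with overlap, where the one used gave -0.51. Between the double knockouts it gave -0.12 against 0.54, and between cells lacking Gna12 and Gna11 -0.12 against 0.37. The direction of Srf in these last contrasts thus rests on the probe set. A dimmer probe set of Myh9, with a mean of 10.44, gave -1.10 in the Gnaq/Gna11 pair, without overlap, where the one used gave -0.12. One of Actn1, alpha actinin, with a mean of 5.77, differed by 0.94 between the cells lacking Gna12 and those lacking Gna11, without overlap, where the one used differed by 0.35 with overlap.

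**Figure D5:**
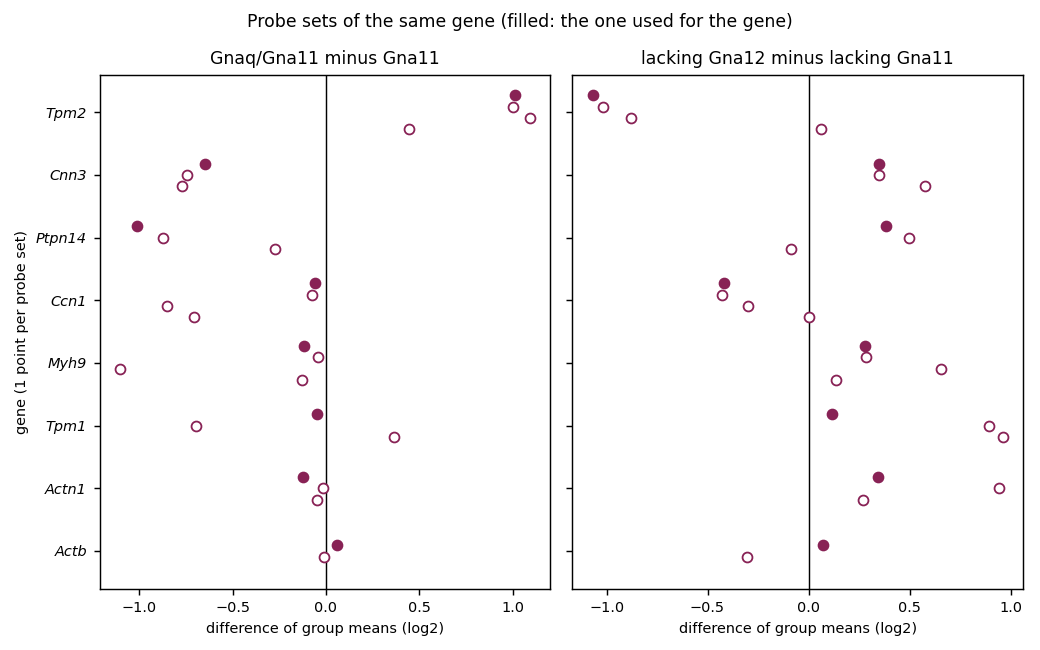
Differences of group means (log2) for the probe sets of 8 members, in the Gnaq/Gna11 pair (left) and between cells lacking Gna12 and Gna11 (right); filled points mark the probe set used for the gene, and probe sets below the median signal are drawn for Ccn1 alone. The 3 bright Tpm2 sets lie together, as do the Cnn3 sets, while those of Tpm1, Myh9 and Actb lie apart.

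Around the members stand 90 measured genes of the same pathways on 5 lists that do not overlap with them. In the Gnaq/Gna11 pair, where 1.84% of all genes were called, 2 of the 22 genes of actin dynamics were called: Enah, which promotes filament elongation, was lower by a difference of -1.26 ± 0.24 (adjusted p = 0.0280) and Limk1, the kinase that inactivates cofilin, was higher by 0.88 ± 0.18 (adjusted p = 0.0373). No gene of the 7 SRF cofactors, 21 other SRF targets, 21 Hippo core genes or 19 other YAP/TAZ targets was called there by limma, with 1, 2, 2 and 5 at an unadjusted p under 0.05. In the Gna12/Gna13 pair none of the 90 was called, and 2 genes passed an unadjusted p under 0.05, Diaph1 (-0.35) and Gadd45b (-0.12).

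More of these genes were called in the cells lacking Gna12 against those lacking Gna11, where 12.3% of all genes were called (6.48% higher and 5.86% lower). Of the other SRF targets 6 were higher and 1 lower, with Pdlim7 (1.04, adjusted p = 0.00308), Actn4 (0.67, adjusted p = 0.00460) and Pdlim5 (0.67, adjusted p = 0.00823) among those higher and Lmod1 (-0.70, adjusted p = 0.00722), which is also on the list of smooth muscle markers, lower. Of the genes of actin dynamics 6 were higher and 1 lower, with Ezr (0.75, adjusted p = 0.00226), Enah (0.86, adjusted p = 0.0101) and Cfl1 (0.32, adjusted p = 0.0205) higher and Limk1 (-1.11, adjusted p = 0.000906) lower. Limk1 was 10.59 ± 0.07 in the Gnaq/Gna11 cells, 9.70 ± 0.09 in the Gna11 cells, 9.16 ± 0.09 in the Gna12 cells and 8.91 ± 0.40 in the Gna12/Gna13 cells (SD, n = 3). Elk3, a ternary complex partner of SRF, was the called cofactor (1.30, adjusted p = 0.0274). Of the other YAP/TAZ targets Asap1 (0.99, adjusted p = 0.0110), Crim1 (0.73, adjusted p = 0.0129) and Gadd45b (0.18, adjusted p = 0.0149) were higher. The Hippo core genes Limd1 (1.89, adjusted p = 0.0453) and Mob1a (0.55, adjusted p = 0.0465) were higher and Mob1b (-0.53, adjusted p = 0.0195) and Taok3 (-0.44, adjusted p = 0.0288) were lower.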

How the data were processed

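Expression was measured with 12 Affymetrix mouse arrays. The deposited values, read here as log2, are probe set summaries by RMA, which the authors ran, per the submitters' processing notes. The base is not stated, and base 2 is what RMA gives, so every fold rests on it. RMA corrects background and normalizes between arrays. Of 45101 probe sets, 34945 were annotated to 1 gene; the brightest per gene by mean over the 12 arrays was used (18193 genes). Array medians lay between 5.03 and 5.11, and the number of arrays limits the precision.

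In R 4.3.3, limma 3.58.1 fitted 4 group means to all arrays (lmFit, then eBayes with a trend over intensity, prior degrees of freedom 3.19 and residual 8), two-sided, with Benjamini-Hochberg adjustment over all genes, and the fit was tested on simulated data. Values on every array are given for members called in a comparison, up to 3 members of smallest p in each, and 10 fixed members; of each other list up to 4 called genes are named, else up to 2, apart from Limk1's group values and the leading markers of other cell types, chosen after their values were seen. The members, lists and tests were chosen with earlier results of these data known. Sequences are RefSeq's (GRCm38.p6). There were 24 alternatives: 12 left out 1 array each and 12 changed normalization, probe sets, filter, model or covariates.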

Additional observations from a re-analysis of the deposited data

How the results depend on the processing

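The members called changed most where the cells lacking Gna12 were set against those lacking Gna11 (9 members): 0 with the Gapdh 3′ to 5′ difference as a covariate, 1 with the leukocyte mean (Acta2, lower), 1 with the mesenchymal mean, that of the fibroblast and smooth muscle markers (Ccn1), and 4 after quantile normalization. Of all genes, 12.3% were called there by the main fit, and 0.803%, 0.473%, 2.1% and 11.6% in these settings, in the same order. In the Gnaq/Gna11 pair (2 members) 0 were called with each of these 3 covariates or with the mean of a gene's probe sets, 1 with array weights (Cnn3), with only the arrays compared (Tpm2, higher), with no intensity trend (Fhl1) and with the replicate block (Cnn3), and 4 when only genes of at least median level were tested. Of all genes, 1.84% were called in this pair by the main fit, and 0.0165%, 0.044% and 0.236% with the 3 covariates. The share was 1.61% with the mean of a gene's probe sets, and 4.72% of the genes tested with the filter on level. It was 0.956% with array weights, 0.764% with only the arrays compared, 1.49% with no intensity trend and 1.7% with the replicate block. Between the single knockouts (0) there was 1 with array weights (Flna) and 2 with the same filter on level (Tpm4 and Flna). Of all genes, 2.37% were called there with array weights, and with the filter 8.77% of the genes tested were. Between the double knockouts (4) there were 0 with the mesenchymal covariate, where 0.418% of all genes were called. Leaving out 1 array gave 0 to 3 calls in the Gnaq/Gna11 pair, 0 to 1 between the single knockouts, 2 to 5 between the double knockouts and 3 to 10 between cells lacking Gna12 and Gna11. The share of all genes called ran from 0.561% to 2.09%, 0.341% to 4.05%, 2.03% to 6.92% and 6.12% to 12.7%, in the same order. In the Gna12/Gna13 pair and for the difference between the differences, no alternative called a member. Of the single-gene results under alternatives, 440 of 586 kept direction and side of the threshold, 136 lost and 9 gained a call, and 1 reversed: Actb between the single knockouts, from 0.10 to -0.11 with the mean of its probe sets. The cause of these changes was not tested. The replicate numbers were not taken to pair the samples: deviations of 18 same-numbered pairs correlated between -0.04 and 0.27, with 6 over 0.1, and the block lost the call of Fhl1 in the Gnaq/Gna11 pair and, between cells lacking Gna12 and Gna11, those of Myl9 (adjusted p = 0.0619) and Myh9 (adjusted p = 0.0635), while Actb and Axl gained one. With Eif2s3y as a covariate the counts were 2 (Cnn3 and Tpm2) in the Gnaq/Gna11 pair, 5 between the double knockouts and 8 between cells lacking Gna12 and Gna11. Of all genes, 1.3%, 6.68% and 12.5% were called there.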

Other observations

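Between the single knockouts, 6 of the 90 other pathway genes were higher in the Gna12 than in the Gna11 cells by limma and none was lower, where 2.82% of all genes were called. They were the SRF targets Pdlim7 (1.30 ± 0.22, SE, adjusted p = 0.0171) and Actn4 (0.69 ± 0.16, adjusted p = 0.0415), the actin genes Cotl1 (1.43 ± 0.26, adjusted p = 0.0213), Ezr (0.71 ± 0.15, adjusted p = 0.0338) and Cfl1 (0.48 ± 0.11, adjusted p = 0.0400), and the YAP/TAZ target Asap1 (1.26 ± 0.28, adjusted p = 0.0400). Cotl1, coactosin, and Cfl1, cofilin, bind or sever actin filaments, and ezrin, encoded by Ezr, links filaments to the membrane. The Gna12 cells also had the higher leukocyte markers, whose part in these values was not tested.

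Between the double knockouts, where 6.1% of all genes were called, Enah (1.55 ± 0.24, adjusted p = 0.00482), Ezr (0.79 ± 0.15, adjusted p = 0.0123), the SRF targets Csrp2 (0.73 ± 0.18, adjusted p = 0.0369), Actn4 (0.64 ± 0.16, adjusted p = 0.0371) and Pdlim5 (0.68 ± 0.18, adjusted p = 0.0486), and the YAP/TAZ target Crim1 (1.01 ± 0.21, adjusted p = 0.0206) were higher in the Gna12/Gna13 cells. Limk1 (-1.67 ± 0.18, adjusted p = 0.000854) and Lmod1 (-0.81 ± 0.18, adjusted p = 0.0267) were lower. The largest difference of the lists in the Gnaq/Gna11 pair was that of Fstl1, a secreted protein listed as a YAP/TAZ target, at 3.16 ± 0.80, which was not called (adjusted p = 0.0771).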
